A study of Homo sapiens with 6 samples.

Results

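The comparison set 2 arrays of RPMI-8402 cells that received a hairpin against TCF1 (shTCF1) against 2 arrays of the same line that received a control hairpin, 4 of the 6 arrays in the study. The line, RPMI-8402, was established from a human acute lymphoblastic leukaemia of T cells. By the study's account, its lentiviral hairpin vectors carried EGFP, an enhanced green fluorescent protein. Transduced cells were collected 48 h later and sorted for EGFP+ cells. Both groups share the line and the 48 h. The study's list of viral constructs names no TCF7 hairpin vector, so a shared viral backbone could not be checked. The control vector encoded a control shRNA, and the sequence of the TCF7 hairpin is not given in the sources used here. The other 2 arrays came from cells labelled shGATA3 and entered the fit for their part in the estimate of the spread. Total RNA was measured on 1-colour Agilent arrays that carry probes for coding genes and for long noncoding RNAs. One part of the labels spells the treatment shcTCF1 rather than shTCF1. The study describes 2 independent experiments, but neither it nor the labels tie an array to a culture, so the p-values measure the spread between these arrays, part of which may be technical.

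TCF1, the product of TCF7, is a high mobility group transcription factor that binds DNA at CTTTGA-type motifs and can act with beta-catenin or with Groucho-type corepressors. In the thymus it is induced downstream of Notch, helps progenitors to enter the T-lineage and stays high in T cells. LEF1 is its closest relative and shares much of its binding specificity.

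The cells carried the T-cell identity that the label gives them. Of 10 T-cell markers, 9 were well above background on all 4 arrays, and the exception was RAG1, a recombinase subunit. Of the markers of other cells, KLRF1, KLRD1 and FCGR3A of NK cells, COL1A2, COL3A1 and DCN of stroma, EPCAM and CDH1 of epithelium, HBB of erythroid cells and S100A8 of myeloid cells were below background on all 4. The control arrays were brighter, with 75th percentile intensities of 269.6 and 287.4 against 178.8 and 165.3 for shTCF1, a ratio of 1.62, and both hairpin groups lay in row 1 of the slide with the controls in row 2, so position and treatment cannot be told apart. No probe was saturated, and the replicate arrays correlated at 0.993 to 0.994 across probes. On the arrays labelled shGATA3 the brightest GATA3 probe did not show the knockdown that the label names. It read 9.46 and 9.55 there and 9.54 and 9.56 in the controls. Values below are normalized log2 intensities unless a fold is named, 1 gene is represented by its brightest tested probe, and a gene is called at an adjusted p below 0.05 (limma, two-sided, Benjamini-Hochberg). With 2 arrays against 2, an exact permutation test of a single gene cannot go below p = 0.333.

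TCF7 itself fell on both of its probes. The brighter probe read 13.96 and 13.91 on the control arrays and 12.58 and 12.68 on the shTCF1 arrays, a fall of 1.31 (SE 0.0979, adjusted p = 0.00327), which left about 2.47-fold less signal. The second probe went from 11.14 and 11.04 to 9.62 and 9.60, a fall of 1.48 (SE 0.126, adjusted p = 0.00383). The groups did not overlap on either probe, and both calls held whichever of the 6 arrays was dropped from the fit. TCF7 remained among the bright genes of the knockdown cells. LEF1 was bright and close to level, at 14.77 and 14.73 against 14.61 and 14.75 (-0.07, adjusted p = 0.634), and the dim relative TCF7L2 read 4.97 and 4.80 against 5.56 and 5.10 (adjusted p = 0.319). TCF7 was the 1 call among 16 tested genes of TCF/LEF factors and partners, 6.25% against 17.4% of all genes. GATA3 read 9.76 and 9.90 with shTCF1, 0.28 above control (adjusted p = 0.117).

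Across the 14287 tested genes, 974 rose (6.82%) and 1518 fell (10.6%) with shTCF1, together 17.4%. Most changes were moderate: the median size among called genes was 0.62, with 98 rises and 266 falls of at least 1 and 7 rises and 29 falls of at least 2. The middle of the distribution lay at -0.05 with quartiles of -0.27 and 0.17. The control and shTCF1 values did not overlap for 69.5% of tested genes, so a lack of overlap alone says little. The call list depended on single arrays: 308 genes, 203 of them lower, stayed called whichever of the 6 arrays was dropped. The number called was 394 once control replicate 1 was dropped, 623 for control replicate 2, 831 for shTCF1 replicate 1 and 897 for shTCF1 replicate 2. Over the 30372 tested probes 18.3% were called, 7.80% higher and 10.5% lower, and the groups did not overlap for 67.7%. Of the called probes, 42.7% rose, against 54.9% under 75th percentile scaling and 53% under quantile normalization. Genes named below as changed, each by its brightest probe, held their call in all 6 of these fits, and under 75th percentile, quantile, cyclic loess and normexp scaling, unless a loss is given. Counts over gene lists fell in the same way, and the number of calls that held in all 6 fits is given beside most of them.

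**Figure D1:**
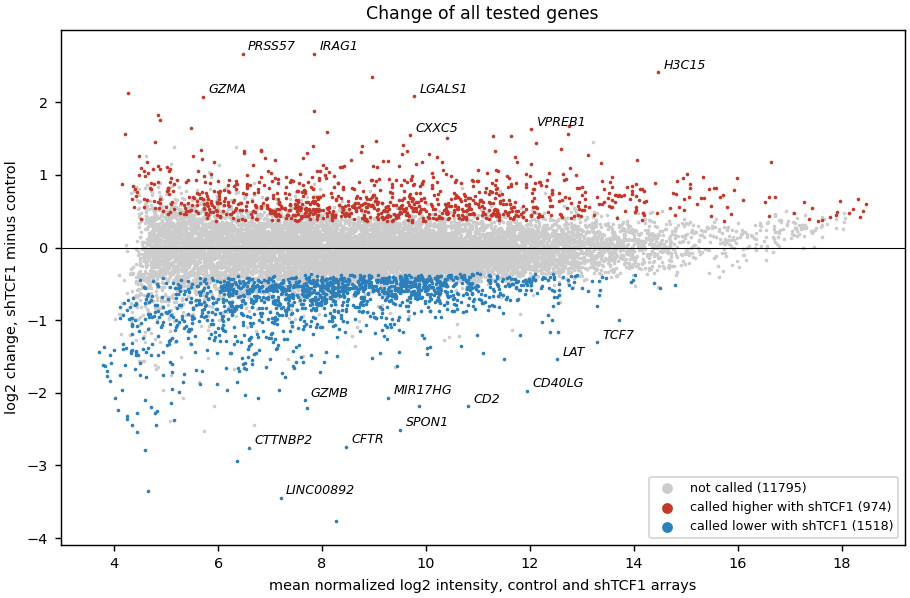
Each point is 1 of 14287 tested genes, with the mean normalized log2 intensity of the 4 arrays on the x axis and the log2 change, shTCF1 minus control, on the y axis. The 974 called rises are red and the 1518 called falls blue, and the falls reach further from 0 than the rises.

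T-cell surface and signalling genes gave several of the largest falls. CD2, an adhesion and costimulatory receptor that binds CD58, read 11.89 and 11.90 on the control arrays and 9.69 and 9.73 on the shTCF1 arrays, a 4.55-fold fall (-2.19, SE 0.0942, adjusted p = 0.00156). CD40LG, the ligand by which helper T cells engage CD40, went from 12.87 and 12.99 to 10.80 and 11.11 (-1.97, SE 0.135, adjusted p = 0.00294). LAT, the membrane scaffold on which T-cell receptor signals assemble, went from 13.38 and 13.22 to 11.67 and 11.85 (-1.54, adjusted p = 0.00321). All 3 genes were bright, and both shTCF1 arrays lay more than 1 log2 unit below both controls. RASGRP1, which activates Ras behind the receptor, went from 10.29 and 10.21 to 8.50 and 8.74 (-1.64, adjusted p = 0.00315), and PTPN22, a phosphatase that restrains receptor signalling, fell by 1.08 (adjusted p = 0.00535).

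The receptor complex itself did not follow these falls. CD4 rose from 11.65 and 11.64 to 12.55 and 12.53 (+0.89, adjusted p = 0.00668). CD3G, a CD3 chain, rose by 0.63 (adjusted p = 0.0339), a call lost without any 1 of the 4 compared arrays (adjusted p up to 0.165) and under quantile and cyclic loess scaling (adjusted p = 0.0631 and 0.0613). CD3E stood at 10.07 and 10.14 against 10.44 and 10.55, which missed the threshold (adjusted p = 0.0559) but was called higher under all 4 other scalings of the 6 arrays (adjusted p = 0.0166 to 0.0451). The proximal kinase LCK stood at 13.85 and 13.82 against 13.66 and 13.81 (adjusted p = 0.562). CD3D overlapped between groups, at 15.11 and 15.15 against 15.57 and 14.74, and CD7 differed by 0.23 (adjusted p = 0.191, and 0.0226 with normexp on the median signal). Of 40 tested receptor complex and signalling genes, 2 rose, 9 fell and 29 were not called, 27.5% called against 17.4% of all genes. The list median was -0.11 beside -0.05 for all tested genes, and 1 rise and 5 falls held in every fit that left out 1 array. Against the arrays labelled shGATA3, CD2 was lower by 1.72 (adjusted p = 0.00101), CD40LG by 2.2 (adjusted p = 0.00113) and LAT by 2.19 (adjusted p = 0.00094), a contrast that does not use the control arrays. For that contrast 6.65% of tested genes and 6.30% of tested probes were called.

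LINC00892, a noncoding RNA gene that RefSeq places next to CD40LG on chromosome X, had the steepest fall among the genes named here, from 8.89 and 8.95 to 5.18 and 5.77, or 10.9-fold (adjusted p = 0.00263). Its log2 change ran from -3.74 to -2.42 over the alternatives made from the scanner intensities. HTATSF1, its tested neighbour on the other side, was 0.30 lower and not called (adjusted p = 0.11). On the arrays labelled shGATA3 the difference from control was -0.07 for LINC00892 and 0.22 for CD40LG, neither called.

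**Figure D2:**
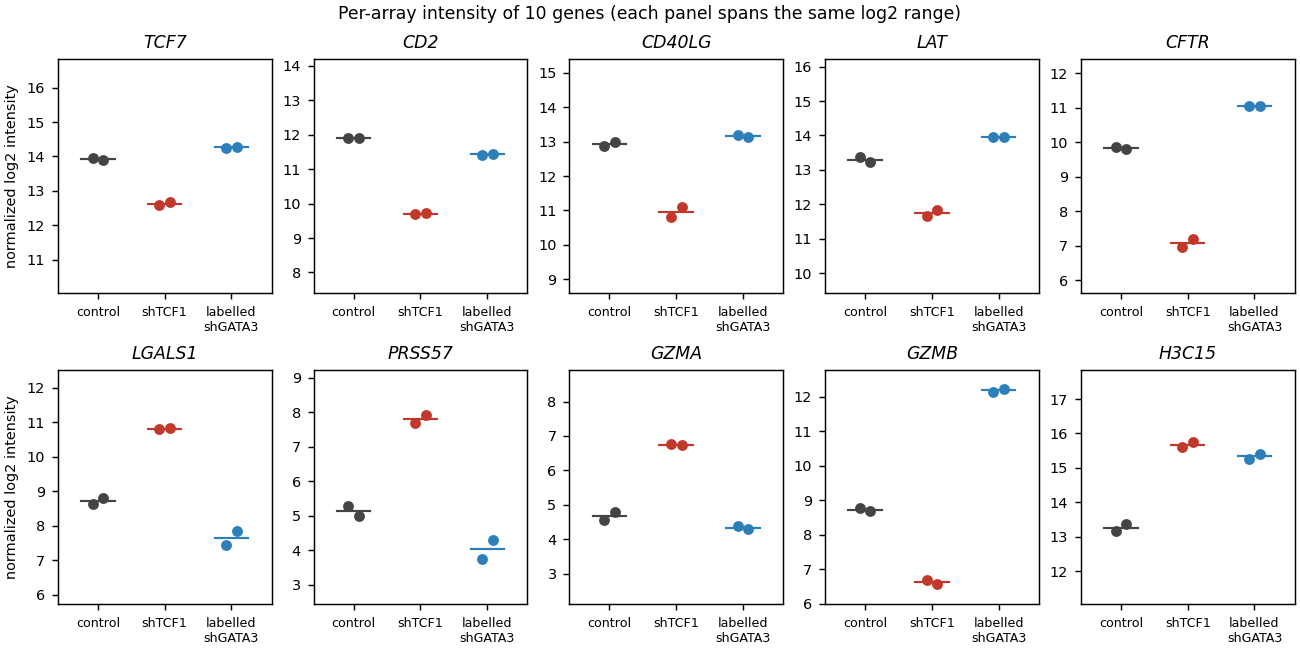
Each panel gives the normalized log2 intensity of 1 gene on the y axis for the 2 arrays of each group (points) with the group mean (line), and every panel spans the same number of log2 units. TCF7, CD2, CD40LG, LAT, CFTR and GZMB are lower and LGALS1, PRSS57, GZMA and H3C15 higher on both shTCF1 arrays than on both control arrays.

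CFTR and CTTNBP2 fell side by side. CFTR, a chloride channel opened by cyclic AMP-dependent phosphorylation, read 9.85 and 9.81 in control cells and 6.97 and 7.20 with shTCF1, a 6.71-fold fall (-2.75, SE 0.115, adjusted p = 0.00156). CTTNBP2, a cortactin-binding protein known from neurons, is the next gene on chromosome 7 and went from 7.93 and 8.02 to 5.02 and 5.41 (-2.76, adjusted p = 0.00253). Over the alternatives made from the scanner intensities CFTR ran from -2.86 to -2.19 and CTTNBP2 from -2.95 to -1.68. Beyond this pair the nearest tested genes on each side were not called, with -0.02 for ST7 (adjusted p = 0.942) and -0.07 for LSM8 (adjusted p = 0.634). Of the 15 tested neighbours within 8 genes of CFTR other than CTTNBP2, 6 were called, 40% against 17.4% of all genes. CAPZA2 (-0.64) and MDFIC (-0.50) were lower and CADPS2 (+0.60), ST7-AS1 (+0.51), FEZF1-AS1 (+0.49) and AASS (+0.44) higher. All 6 calls were lost without any 1 of the 4 compared arrays. CFTR was higher than control on the arrays labelled shGATA3 (+1.22), so the hairpin groups differed by 3.97 (adjusted p = 0.000205), whereas CTTNBP2 differed from control by -0.10 there.

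**Figure D3:**
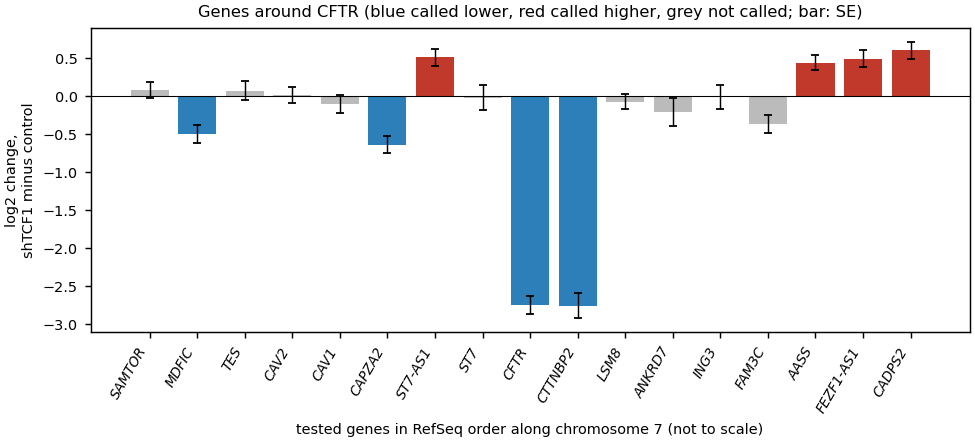
Bars give the log2 change, shTCF1 minus control, of 17 tested genes in RefSeq order around CFTR on chromosome 7, with the SE of the fit as the error bar. CFTR (-2.75) and CTTNBP2 (-2.76) stand apart from their 15 neighbours, which lie between -0.64 and 0.60 and of which 4 are called higher (red) and 2 lower (blue).

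Other genes of cyclic nucleotide signalling changed as well. IRAG1, a substrate of cyclic GMP-dependent kinase that restrains calcium release, had the largest rise of all tested genes measured above background on the 4 arrays, from 6.32 and 6.72 to 9.12 and 9.25, or 6.36-fold (adjusted p = 0.00348). ADCY7, an adenylate cyclase, fell by 1.08 (adjusted p = 0.00578). Of 25 tested genes for guanylate cyclases, cyclic nucleotide handling and chloride channels, 1 rose and 9 fell, 40% against 17.4% of all genes. Their median was -0.29 (-0.29 to -0.14 across scalings). This list was chosen with earlier results of these data known and holds both CFTR and IRAG1. Its share of calls is therefore no independent support for a change of the pathway. CFTR and ADCY7 were the 2 falls that held in every fit that left out 1 array. For IRAG1 the difference from the arrays labelled shGATA3 was 3.60 (adjusted p = 0.0011).

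Cytotoxic genes went in opposite directions. GZMA, a tryptase-type granzyme, rose from 4.56 and 4.79 to 6.75 and 6.75, or 4.23-fold (adjusted p = 0.002). Its control signal was dim, and its log2 change ran from 0.97 to 2.37 over the alternatives made from the scanner intensities. GZMB, the granzyme that cleaves after aspartate and activates caspases, fell from 8.78 and 8.68 to 6.69 and 6.56, or 4.3-fold (adjusted p = 0.00199). Neither gene overlapped between groups, and the arrays labelled shGATA3 read 12.16 and 12.22 for GZMB, 3.46 above control. TBX21, which encodes T-bet, was below background on both control arrays and at 5.80 and 5.70 with shTCF1, at least 2.94-fold higher (adjusted p = 0.0487), a call lost without any 1 of the 4 compared arrays (adjusted p up to 0.16) and under 75th percentile, quantile and cyclic loess scaling (adjusted p = 0.0813, 0.1 and 0.118). A gene given by such a bound, here and below, passed the filter on dim probes only through the group in which it was bright, so its adjusted p comes from a gene selected by the difference itself and adds no support to it. NCAM1, the CD56 marker of NK cells, fell by 0.79 (adjusted p = 0.0114), lost without control replicate 1 or shTCF1 replicate 1 (adjusted p up to 0.0727). Of 25 tested NK-cell and cytotoxic genes, 4 rose and 4 fell, 32% against 17.4% of all genes. The median of -0.02 ran from -0.03 to 0.03 across scalings, and GZMA and GZMB were the calls that held in every fit. Of 4 NK-cell markers, 3 were below background on all 4 arrays, and the summed marker level, 7.31 and 7.11 in control and 7.68 and 5.90 with shTCF1, followed NCR1. In bulk RNA a change in the share of cells that express a gene and a change in RNA per cell cannot be told apart.

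Several stem and progenitor genes rose, most of them with calls that depended on single arrays. PRSS57, a serine protease of primary granules in early myeloid cells, rose from 5.29 and 4.99 to 7.68 and 7.92, or 6.35-fold (adjusted p = 0.00348). Its log2 change ran from 1.52 to 2.91 over the alternatives made from the scanner intensities. SMIM24, a small membrane protein, rose by 1.01, HOXA9 by 0.87 and HOXA10 by 0.85, the homeobox genes of early haematopoietic cells and of several leukaemias. LYL1, a basic helix-loop-helix oncogene of this disease, rose by 0.73. These 4 calls were less secure than that of PRSS57: SMIM24 was lost without control replicate 1 (at up to 0.0542), HOXA9 and HOXA10 without control replicate 2 (at up to 0.051 and 0.0546) and LYL1 without either control (at an adjusted p of up to 0.0661). In the list of stem and progenitor genes, 9 of 32 tested members rose (28.1%, against 6.82% of all genes) and 1 fell (3.12%, against 10.6%), with a median of 0.03. The 9 rises became 3 and 2 without the first and second control array and 6 without either shTCF1 array, PRSS57 was the 1 that held in every fit, and up to 4 members fell under other scalings. The member that fell was ANGPT1, a ligand of TIE2, below background on both shTCF1 arrays and at least 2.22-fold lower (adjusted p = 0.0377), lost without either control or either array labelled shGATA3 (adjusted p up to 0.144) and under 75th percentile, quantile and cyclic loess scaling (adjusted p = 0.0644, 0.0705 and 0.0559).

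B-lineage genes went both ways. VPREB1 and IGLL1, which form the surrogate light chain of the pre-B-cell receptor, both rose, VPREB1 from 11.21 and 11.21 to 12.78 and 12.90 (+1.63, adjusted p = 0.00315) and IGLL1 from 9.30 and 9.18 to 10.37 and 10.40 (+1.15, adjusted p = 0.00538). CR2, the complement receptor CD21, fell from 12.88 and 12.74 to 11.83 and 11.92 (-0.93, adjusted p = 0.00683). BCL6, a repressor of germinal centre B cells and follicular helper T cells, fell by 1.13 (adjusted p = 0.00807), though 1 of its shTCF1 arrays was not well above background. Of 19 tested B-lineage genes 4 rose and 2 fell, 31.6% against 17.4% of all genes. The median was 0.05, and 2 rises and 2 falls held in every fit. Of the B-cell markers, MS4A1 differed by -0.20 and was not called, and PAX5, which defines the lineage, was well above background on 1 array. The part of B-lineage cells in the result was not tested.

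Myeloid genes did not move together. CSF3R, the receptor of granulocyte colony-stimulating factor, rose by 0.67 (adjusted p = 0.0136), whereas S100A9, a calprotectin subunit, fell from 6.0 and 5.97 to 4.66 and 5.01 (-1.15, adjusted p = 0.0145). Both calls were lost without either control or shTCF1 replicate 1 (adjusted p up to 0.0816 and 0.0703). Of 26 tested members, 6 rose and 4 fell, 38.5% against 17.4% of all genes, with a median of 0.02. PRSS57 was the 1 call that held in every fit. MPO and CD14 were level at 0.02 and 0.03, neither called.

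LGALS1 rose from 8.64 and 8.82 to 10.80 and 10.82, or 4.24-fold (adjusted p = 0.00337). It encodes galectin 1, a glycan-binding protein with known effects on T-cell survival. It was lower than control by 1.08 on the arrays labelled shGATA3, so that the hairpin groups differed by 3.17 (adjusted p = 0.000855). Of the other galectins, LGALS9C rose by 0.81 (adjusted p = 0.00829, lost without control replicate 1 at up to 0.0551) and LGALS12 fell by 0.64 (adjusted p = 0.0202, lost without any 1 of the 4 compared arrays at up to 0.106). LGALS9C has near-identical paralogs, and its probe may not tell them apart.

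ANXA1, an annexin with anti-inflammatory actions, rose from 7.18 and 7.40 to 8.74 and 9.03 (+1.59, adjusted p = 0.0047). CCL1, a chemokine of activated T cells that binds CCR8, rose from 7.03 and 6.77 to 8.64 and 8.91, or 3.67-fold (adjusted p = 0.00415). CXXC5, a zinc finger protein that restrains Wnt signalling, rose from 8.94 and 8.92 to 10.43 and 10.52 (+1.54, adjusted p = 0.00279). FAM177B rose by 2.35 (adjusted p = 0.0111), lost without control replicate 1 or shTCF1 replicate 2 (adjusted p up to 0.055). The arrays labelled shGATA3 differed from the same controls by 1.89 for ANXA1, 0.00 for CCL1, -1.84 for CXXC5 and 2.08 for FAM177B.

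SPON1, a secreted extracellular matrix protein, fell from 10.74 and 10.77 to 8.24 and 8.25, or 5.7-fold (adjusted p = 0.00199). KANK4, an adaptor of the actin cytoskeleton, fell on both of its probes, at -2.18 and -2.06 (adjusted p = 0.00348 and 0.00199), and TPM1, a tropomyosin, on all 3 of its probes, at -2.03, -1.58 and -1.36. F12, coagulation factor XII, fell from 7.65 and 7.96 to 5.67 and 5.80 (-2.07, adjusted p = 0.00315). Over the alternatives made from the scanner intensities the log2 change of F12 ran from -2.22 to -1.24. F12 was also 1.46 below control on the arrays labelled shGATA3 (adjusted p = 0.00764). The limma test between the hairpin groups did not call it (adjusted p = 0.0723), but called SPON1, KANK4 and TPM1. RAB2B fell by 2.21 on 1 probe (adjusted p = 0.0315), but the other probe of the gene read -0.08 (adjusted p = 0.704), and the call was lost without either control or either array labelled shGATA3 (adjusted p up to 0.122). The S100 protein S100A10, a partner of annexin A2, fell by 0.97 (adjusted p = 0.00998).

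**Figure D4:**
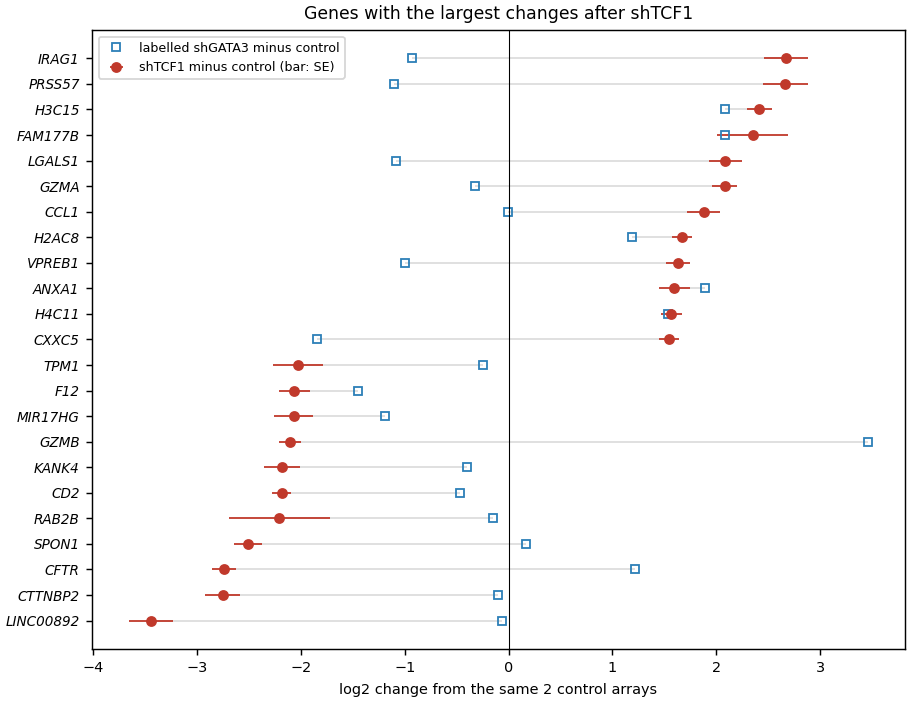
For 23 genes with the largest rises and falls, red points give the log2 change of shTCF1 from control with its SE, and open squares the change of the arrays labelled shGATA3 from the same 2 control arrays. H3C15, FAM177B, H2AC8, ANXA1 and H4C11 are at least 1 above control in both groups, whereas CFTR and GZMB are below control with shTCF1 and above it in the other group.

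S1PR1 and KLF2, which act in the exit of T cells from the thymus, both fell. S1PR1, a receptor for sphingosine 1-phosphate, went from 7.78 and 7.89 to 5.28 and 4.52 (-2.94, adjusted p = 0.00375), with 1 of the shTCF1 arrays not well above background. The log2 change of S1PR1 ran from -3.32 to -1.67 over the alternatives made from the scanner intensities. KLF2, a transcription factor that drives S1PR1, went from 7.17 and 7.29 to 5.99 and 5.94 (-1.27, SE 0.101, adjusted p = 0.00348). S1PR5, a related receptor, fell by 0.98 (adjusted p = 0.0086, lost without control replicate 1 at up to 0.055). RUNX3, a factor of cytotoxic T cells, fell by 0.87 (adjusted p = 0.0116, lost without either control or shTCF1 replicate 1 at up to 0.0593). KLF2 was 1.41 above control in the arrays labelled shGATA3 (adjusted p = 0.00287), and the difference between the hairpin groups, shTCF1 minus shGATA3, was -2.68. S1PR5 was 0.87 below control in those arrays. The limma test between the hairpin groups called S1PR1 (adjusted p = 0.00473) but not S1PR5 (adjusted p = 0.651) or RUNX3 (adjusted p = 0.153). Adhesion genes as a whole went both ways, with 7 of 39 tested members higher and 4 lower, 28.2% against 17.4% of all genes. Their median was 0.03. None of the 7 rises was called without any 1 of the 4 compared arrays, and 1 fall held in every fit. CD44, the hyaluronan receptor, was among the rises (+0.61, adjusted p = 0.0209, lost without any 1 of the 4 compared arrays at up to 0.11).

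Cytokine receptor genes were also split. IL2RG, the common gamma chain, rose from 12.20 and 12.25 to 13.25 and 13.40 (+1.1, adjusted p = 0.0062). IL4R, which pairs with that chain, fell from 8.03 and 8.15 to 6.98 and 7.0 (-1.1, adjusted p = 0.00636), and IL6R was below background on both shTCF1 arrays, at least 1.78-fold lower (adjusted p = 0.00294). TNFRSF4, the costimulatory receptor OX40, rose by 0.89 (adjusted p = 0.00922, lost without control replicate 1 at up to 0.0547). On the arrays labelled shGATA3, IL2RG was 0.88 above control and IL4R 0.80 below it. The limma test between the hairpin groups called neither (adjusted p = 0.321 and 0.205). It called TNFRSF4 (adjusted p = 0.00429) and the dim IL6R (adjusted p = 0.0233). Of 39 tested cytokine receptor and JAK-STAT genes, 7 rose and 8 fell, 38.5% against 17.4% of all genes. The median was -0.03, and 1 rise and 2 falls held in every fit. Among NF-kB and immediate early genes, LTB, a membrane-anchored lymphotoxin, fell from 12.38 and 12.43 to 11.12 and 11.27 (-1.21, adjusted p = 0.00418), and BIRC3, an inhibitor of apoptosis induced by NF-kB, fell by 1.08 (adjusted p = 0.0062). That list had 5 rises and 7 falls among 44 tested, 27.3% against 17.4% of all genes, with a median of -0.17. Of these calls 2 falls and no rise held in every fit. GADD45G, a stress-induced growth arrest gene, fell from 6.83 and 7.12 to 5.08 and 5.56 (-1.66, adjusted p = 0.00666), and it was 4.34 above control in the arrays labelled shGATA3.

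The core and linker histone genes were the list with the most calls. Of 66 tested members 37 rose and none fell, 56.1% against 17.4% of all genes, with a median of 0.46 that ran from 0.40 to 0.51 across scalings, under which 33 to 40 members rose. H3C15 rose from 13.15 and 13.37 to 15.60 and 15.75, or 5.33-fold (adjusted p = 0.00199). H2AC8 rose by 1.67 (adjusted p = 0.00236), H4C11 by 1.57 (adjusted p = 0.00279) and H4C6 by 1.32 (adjusted p = 0.00383). Without any 1 of the 4 compared arrays 11 to 19 members were called higher, and 11 were called in every fit that left out 1 array. The same list had a median of 0.60 in the arrays labelled shGATA3 against control, and 2 of its 66 members were called between the hairpin groups. The controls are shared by both differences. Replication-dependent histone genes are near-identical in sequence, and these probes may not tell the copies apart, so that the members are not independent measurements. Neither the brightness of the control arrays nor the slide row was tested as a part of this result.

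MIR17HG, the host transcript of an oncogenic microRNA cluster, fell from 10.52 and 10.09 to 8.30 and 8.16, or 4.2-fold (adjusted p = 0.00442). The arrays measured the host transcript, not the mature microRNAs. The 6 microRNAs that RefSeq (GRCh38.p14) places in the cluster on chromosome 13 are shown with bases 2 to 8, the seed, in capitals, since their 4 seeds group them.
hsa-miR-17-5p: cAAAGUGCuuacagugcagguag
hsa-miR-20a-5p: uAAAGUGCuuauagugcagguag
hsa-miR-18a-5p: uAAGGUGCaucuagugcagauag
hsa-miR-19a-3p: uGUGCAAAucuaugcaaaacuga
hsa-miR-19b-3p: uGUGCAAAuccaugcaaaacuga
hsa-miR-92a-3p: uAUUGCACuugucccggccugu
The first pair share 1 seed and the miR-19 pair another. MYC, a known activator of this cluster, read 12.20 and 12.23 against 11.61 and 11.65 (-0.59, adjusted p = 0.018), a call lost without any 1 of the 4 compared arrays (adjusted p up to 0.0974). In the arrays labelled shGATA3, MIR17HG was 1.19 and MYC 0.73 below control, and the test between the hairpin groups called neither (adjusted p = 0.0516 and 0.457).

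Growth and cell cycle lists were called at shares below that of all genes, with falls that depended on the scaling. Of 65 tested DNA replication genes 6 fell and none rose, 9.23% against 17.4% of all genes, and RFC3, a subunit of the clamp loader, fell from 10.17 and 10.12 to 8.93 and 9.04 (-1.16, adjusted p = 0.00388). Of 66 mitotic genes 2 rose and 8 fell, 15.2% and so near the share of all genes, and none of these 10 held in every fit that left out 1 array. Cytosolic ribosomal protein genes had a median of 0.24, with 71 of 79 above 0 but 5 called, and that median ran from -0.04 to 0.29 across scalings, so that its direction depends on the scaling. Ribosome biogenesis genes had a median of -0.18, with 3 of 56 called, all lower. Oxidative phosphorylation subunits had a median of 0.02 (-0.08 to 0.06 across scalings) with 3 rises and 2 falls among 76. Across other scalings 4 to 16 DNA replication, 7 to 18 mitotic, 2 to 14 ribosome biogenesis and 1 to 10 oxidative phosphorylation genes fell. None of 15 housekeeping reference genes was called by limma, and 8 of the 15 did not overlap between groups.

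Wnt pathway and feedback genes had more falls than rises. Of 26 tested, 1 rose and 8 fell, 34.6% against 17.4% of all genes, with a median of -0.22 (-0.22 to -0.14 across scalings). WNT5A, a ligand of noncanonical signalling, went from 7.30 and 7.40 to 6.40 and 6.24 (-1.03, adjusted p = 0.0203). AXIN2, the feedback gene that beta-catenin and TCF factors induce, went from 7.11 and 7.18 to 6.58 and 5.86 (-0.92, adjusted p = 0.0414), and AXIN1, a scaffold of the destruction complex, fell by 0.66 (adjusted p = 0.0299). No call of this list held in every fit that left out 1 array: WNT5A was lost without any 1 of the 4 compared arrays (adjusted p up to 0.0837), AXIN2 without either control, shTCF1 replicate 2 or either array labelled shGATA3 (adjusted p up to 0.138), and AXIN1 without either control or shTCF1 replicate 1 (adjusted p up to 0.144). AXIN2 also lost its call under 75th percentile, quantile and cyclic loess scaling (adjusted p = 0.0592, 0.0585 and 0.0547).

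Notch genes were balanced in direction, with 6 rises and 7 falls among 38 tested, 34.2% against 17.4% of all genes. The median was -0.02 (-0.02 to 0.03 across scalings), and 2 rises and 1 fall held in every fit. NOTCH1, the receptor that drives T-lineage entry, rose from 9.12 and 9.1 to 10.03 and 10.07 (+0.94, SE 0.0952, adjusted p = 0.00555), and NOTCH4 rose by 0.93 (adjusted p = 0.00728). The fall that held was that of CR2, which is also in the B-lineage list above and is the same measurement. POFUT1, which adds the fucose that Notch ligands need, fell by 0.94 (adjusted p = 0.0167, lost without control replicate 1 or either shTCF1 array at up to 0.083). NKX2-5, a homeobox oncogene of T-cell leukaemia, rose from 14.38 and 14.66 to 15.44 and 15.62 (+1.01, adjusted p = 0.0101, lost without control replicate 1 at up to 0.0562).

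Several metabolic and stress genes fell. SLC2A3, a glucose transporter, was below background on both shTCF1 arrays and at least 1.73-fold lower (adjusted p = 0.00699). HK2, the first enzyme of glycolysis, fell by 0.95 (adjusted p = 0.01), as did VEGFA, an angiogenic factor induced by hypoxia (adjusted p = 0.00921). On the arrays labelled shGATA3, HK2 differed from control by -0.93 and VEGFA by 0.04. The limma test between the hairpin groups called VEGFA (adjusted p = 0.011) and the dim SLC2A3 (adjusted p = 0.0343) but not HK2 (adjusted p = 0.954). Of 40 tested glycolysis and hypoxia genes 1 rose and 7 fell, 20% against 17.4% of all genes, with a median of -0.27 (-0.27 to -0.22 across scalings), and these 3 falls were the ones that held in every fit that left out 1 array. The median of the list in the arrays labelled shGATA3 was -0.46. Of 50 tested unfolded protein and ATF4 response genes 2 rose and 9 fell, 22% and so also near that share, with a median of -0.11 and 1 fall that held in every fit. After VEGFA, which is also in this list, the largest called fall was that of SLC3A2, an amino acid transporter chain (-0.84, adjusted p = 0.0194, lost without control replicate 1 or shTCF1 replicate 1 at up to 0.0973). Interferon-stimulated genes were split, 5 higher and 6 lower of 48, 22.9% against 17.4% of all genes. MX2, an antiviral GTPase, was the call that held in every fit (+0.84, adjusted p = 0.00661).

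**Figure D5:**
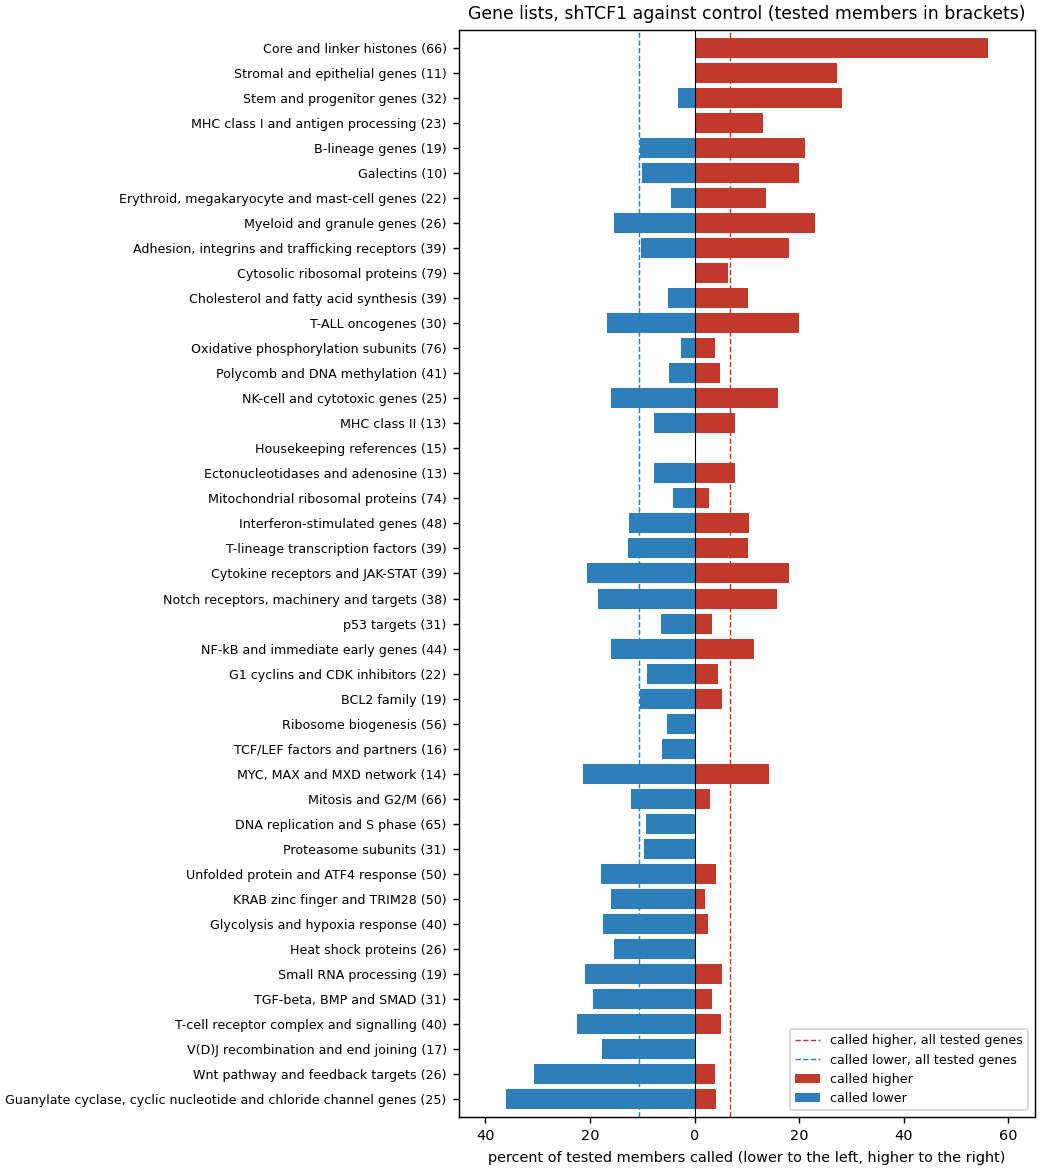
For the lists shown, each with at least 10 tested members (their number in brackets), bars give the percent of members called higher (red, right) and lower (blue, left) with shTCF1, and dashed lines the percent of all tested genes called higher (6.82) and lower (10.6). Histones reach furthest to the right and the cyclic nucleotide and Wnt lists furthest to the left. The lists were chosen with earlier results of these data known.

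Among the long noncoding RNA probes, 746 of 7377 tested rose and 540 fell, where 7.80% of all tested probes rose and 10.5% fell. The probe of transcript TCONS_00017466 had the largest fall, from 8.32 and 8.23 to 4.82 and 5.08, or 10.1-fold (adjusted p = 0.00156). The probe of TCONS_00020083 had the largest rise, from 6.90 and 6.99 to 8.95 and 8.86, or 3.89-fold (adjusted p = 0.00417). On the arrays labelled shGATA3 the first differed from control by -0.05 and the second by 1.2. Probes of coding and other catalogue transcripts gave 1624 rises and 2638 falls among 22995.

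The TCF motif was looked up in promoters of the genes with the largest changes. RefSeq (GRCh38.p14) promoters, 250 bases before to 50 after the start, were found for 21 of 25 genes looked up, and 2 of them, GZMA and CCL1, held CTTTGAA or CTTTGAT on either strand. Among promoters of tested genes 4.59% of 11274 held it, with 6.26% of 735 called higher, 3.99% of 1179 called lower and 4.53% of 9360 not called, against 6.98% of all 27305 promoters. A match is a run of letters in this window and no evidence of binding, and distal elements were outside it. Among the other rises looked up, PRSS57, H3C15, FAM177B, H2AC8, VPREB1, ANXA1, H4C11 and CXXC5 had no match. The promoters with a match are shown beside that of CD2, a gene that fell without one, with the motif in capitals.
GZMA, chr5:55102396-55102695, plus strand: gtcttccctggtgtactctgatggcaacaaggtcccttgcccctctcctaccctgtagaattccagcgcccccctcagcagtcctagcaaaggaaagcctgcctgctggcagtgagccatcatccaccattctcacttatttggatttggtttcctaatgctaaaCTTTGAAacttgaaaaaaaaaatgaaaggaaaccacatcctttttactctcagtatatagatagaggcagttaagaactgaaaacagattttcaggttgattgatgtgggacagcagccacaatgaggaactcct
CCL1, chr17:34363184-34363483, minus strand: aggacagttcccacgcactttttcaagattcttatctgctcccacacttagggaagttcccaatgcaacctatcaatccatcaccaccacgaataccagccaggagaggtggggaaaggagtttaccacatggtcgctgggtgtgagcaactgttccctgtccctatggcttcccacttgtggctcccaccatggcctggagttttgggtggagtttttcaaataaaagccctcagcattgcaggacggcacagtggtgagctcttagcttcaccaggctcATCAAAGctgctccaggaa
CD2, chr1:116754180-116754479, plus strand: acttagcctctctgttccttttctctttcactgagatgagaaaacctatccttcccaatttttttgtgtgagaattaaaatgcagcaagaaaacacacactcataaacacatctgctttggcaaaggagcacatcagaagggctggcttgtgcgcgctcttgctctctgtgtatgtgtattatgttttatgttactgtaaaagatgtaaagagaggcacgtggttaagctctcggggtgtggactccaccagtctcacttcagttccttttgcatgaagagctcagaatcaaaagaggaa
The match begins at position -85 from the start of GZMA and at position 32 from that of CCL1, where it reads as CTTTGAT on the other strand.

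Some genes were measured in 1 group only. MB, the muscle oxygen-binding protein myoglobin, was below background on both control arrays and at 5.29 and 5.38 with shTCF1, at least 2.20-fold higher (adjusted p = 0.00294). MEF2C, a transcription factor of early thymic progenitors and of a T-cell leukaemia subtype, was higher on the same terms. Its bound of 2.11-fold equals its observed change. The call (adjusted p = 0.0311) was lost without either control or shTCF1 replicate 1 (at up to 0.119) and with normexp (0.0585). In the other direction ECRG4 was below background on both shTCF1 arrays and at least 4.13-fold lower (adjusted p = 0.0081), and RAG1 at least 1.87-fold lower (adjusted p = 0.0291, lost without either control or shTCF1 replicate 1 at up to 0.123 and under quantile normalization at 0.0619). On each dim array such bounds took the larger of the gene's own reading and the dimmest signal still called above background. They applied to 30 called genes dim in control and 109 dim with shTCF1. They hold only on the normalized scale used here. Over the alternatives made from the scanner intensities, log2 changes were as small as 0.46 for MB, 0.48 for TBX21, -0.87 for ECRG4 and -0.57 for IL6R.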

How the data were processed

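Total RNA (100 ng input) of 6 samples was labelled with Cy3 and hybridised to custom 1-colour Agilent arrays, all on 1 slide and in 1 scan. Per the file headers the scanner files hold linear probe intensities, background-subtracted by the authors' Agilent Feature Extraction 10.7.1.1 (the labels name 9.1). The deposited value table holds the authors' normalized log2 values. Their scale was found by setting each column against the arrays: the column of control replicate 1 followed the array of control replicate 2 best (r = 0.992), that of control replicate 2 followed no array (r at most 0.827), and that of shGATA3 replicate 1 followed the array of shGATA3 replicate 2 (0.991), so the table served as an alternative only. Its medians were 4.99, 5.11, 4.98, 4.94, 4.94 and 5. A mean of pooled samples or a comparison by the authors was not used, and 0 columns were left without a sample.

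From 57176 unique probes, after control spots and outlier flags were removed, 30372 well above background on both arrays of control or of shTCF1 were tested. VSN and limma are the tools of the study's methods. VSN was reimplemented here (quantile 0.9, 7 iterations, 5 strata) in R 4.3.3, and its log2-like scale understates the folds of dim probes. limma 3.58.1 (lmFit, eBayes, two-sided, Benjamini-Hochberg over the tested probes) fitted all 6 arrays by group, with 3 residual and 3.08 prior degrees of freedom. Gene symbols came from matching probe accessions to RefSeq GRCh38.p14, which named 18278 tested probes as 14287 genes, the brightest tested probe standing for a gene. The custom probes keep their transcript names.

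Genes named were TCF7 and 3 given markers, the 12 largest rises and falls above background on all 4 arrays with no overlap, up to 4 called members of each of 45 lists (1500 of 1732 genes tested), the 2 extreme noncoding probes, bounds, and neighbours of the 24 genes. PTPN22, LYL1, CD44 and the called neighbours further from CFTR, outside this rule, were named after their values were seen, and members that define a list or a cell type are named whatever their values. The members and lists were chosen with earlier results of these data known. Of the genes chosen by the rule 1, and of the markers and lists 1 each, are not reported here.

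Alternatives were other scalings, filters, fits, the deposited table and leaving out each array. On simulated data with 30434 probes, 200 of them changed, the fit for shTCF1 minus control recovered 98% of falls and 98% of rises of 2 log2 units. It recovered 36% and 32% of those of 1, and called 0.0265% of unchanged probes. Each simulated array had its own overall brightness and independent noise. False calls from slide position or other differences shared by a group could not show there. The number of arrays limits the precision.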

Additional observations from a re-analysis of the deposited data

How the results depend on the processing

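The 5548 called probes became 2272 without a filter on dim probes, and ranged from 958 to 5540 when 1 array was left out (958 and 1635 with the first and second control array left out, 2064 and 2148 with the first and second shTCF1 array left out). The 2492 called genes became 948 without the filter and 3873 with normexp on the median signal. TCF7 kept its call under every alternative made from the scanner intensities, at -1.26 to -1.35 and -1.43 to -1.53 on its 2 probes when 1 array was left out. Replicate numbers did not pair the arrays (correlations of same-numbered deviations -0.00759, -0.0385 and 0.0505), and with the number as a replicate block 4303 probes were called. Among results near 0 and not called, CD3D turned to -0.12 (quantile normalization), -0.09 (cyclic loess) and -0.2 (normexp), ST7 to 0.05 (75th percentile scaling) and 0.06 (quantile normalization) and LSM8 to 0.04 (normexp), and with 1 array left out CD3D ranged from -0.39 to 0.44 and ST7 from -0.21 to 0.17. Of the other values set against an alternative, 3199 kept their direction and call or spread, 271 kept the direction and lost the call, 7 gained it and 769 moved by more than the spread or 1.5 times, most of them counts and medians of lists.

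By limma on the deposited values 0 probes were called (2641 at an unadjusted p below 0.05), and of the 24 genes with the largest changes of shTCF1 from control 0 were called between the hairpin groups, against 17. There TCF7 was at -0.2 and 1.24 on its 2 probes, CD2 at 0.85, MIR17HG at 0.38, RASGRP1 at 0.74, CD3D at -0.15, LCK at 0.61, BIRC3 at 0.43, LEF1 at 0.24, MYC at 0.12, SLC3A2 at 0.3, ST7 at 0.05 and CAPZA2 at 2.56, with the direction turned in each but the first TCF7 probe. Without its control replicate 2 column, an alternative chosen after seeing the data, 0 probes were called (6569 unadjusted), and TCF7 was at -1.39 and -1.56 (adjusted p = 0.0865), with CD3D at -0.2, ST7 at 0.06 and LSM8 at 0.04. That column followed no scanner file, and the cause was not tested. Slide and scan could not be blocked, since all arrays share 1 of each. The control arrays were 1.62 times as bright, and dim genes carry only bounds.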
